A study of Mus musculus with 21 samples.

Results

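Oxidative phosphorylation runs on 5 enzyme complexes of the inner mitochondrial membrane, and the nuclear genes for them were followed in mouse cerebral cortex. The genes were taken by symbol: every probe set with a single gene symbol that began with Nduf, Uqcr, Cox followed by a digit of 4 to 8, or Atp5, that was Sdha, Sdhb, Sdhc or Sdhd, or that was Cyc1. Where a gene had several probe sets, the brightest on average stood for it. This gave 85 genes of the 12393 measured, of which 38 belonged to complex I, 4 to complex II, 9 to complex III, 17 to complex IV and 17 to complex V. The rule itself used no measured value other than the mean level that picked 1 probe set for each gene. It was, however, set with earlier results of these data known.

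Complex I (NADH dehydrogenase) and complex II (succinate dehydrogenase) pass electrons to ubiquinone, complex III hands them to cytochrome c, and complex IV (cytochrome c oxidase) gives them to oxygen. Complexes I, III and IV pump protons as they work, and complex V (ATP synthase) uses the returning protons to make ATP, on which the ion pumps of neurons depend. The complexes other than complex II mix subunits from the nuclear genome with a few from mitochondrial DNA. The genes measured here were all nuclear, since the array named no probe set for the mitochondrial subunits listed.

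Each array held the RNA of 1 mouse cortex, from the mixed C57BL/6J x C3HeJ background, 2 weeks after doxycycline was taken out of the diet. TDP-43 binds RNA and is mostly nuclear; its human form was carried as a transgene that answers to tTA, a transactivator silenced by doxycycline. The groups were 5 dNLS bigenic mice of line NLS4, with tTA and TDP-43 lacking its nuclear localisation signal; 4 WT bigenic mice of line WT12, with tTA and wild-type TDP-43; 4 dNLS monogenic mice of line NLS4, with the TDP-43 transgene but no tTA; and 8 nontransgenic mice, 6 of them from line NLS4 and 2 from line WT12. In the published lines, as background, tTA is driven by the Camk2a promoter, so forebrain excitatory neurons make the transgene product, while the cortex sampled here holds all cell types. No group had tTA alone, so tTA and the TDP-43 it switches on cannot be told apart. Each form of TDP-43 came from 1 line, so the form of the protein and the line cannot be told apart either. By label, 4 of 5 dNLS bigenic, 1 of 4 WT bigenic, 3 of 4 dNLS monogenic and 4 of 8 nontransgenic mice were male. Sex was a term in every test. The labels used here gave no age.

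The deposited values were log2 levels from 2.04, the lowest, to 15.08, and levels are not compared between genes, since each probe set has its own response. Of the 85 genes, 77 had a mean above the median gene's mean of 7.59, so most were read far above the floor. All 21 arrays correlated with each other at 0.958 or more. The difference between the 3′ and 5′ probe sets for beta-actin, a sign of broken RNA that grows as the 5′ end is lost, was 1.34 to 2.30 in dNLS bigenic arrays, 1.37 to 1.43 in WT bigenic arrays, 1.56 to 3.13 in dNLS monogenic arrays and 1.46 to 8.20 in nontransgenic arrays. Arrays nontransgenic 4 and nontransgenic 6 had the highest differences, at 4.70 and 8.20 on the log2 scale. Array nontransgenic 6 held the lowest level of all 21 arrays for 22 of the 85 genes and the highest for 17, against 18.82% and 29.87% of the 9762 genes with any spread. Array nontransgenic 1, labelled male, carried the female-specific transcript Xist. The 11 neuronal marker genes summed to 129 to 132 log2 units in dNLS bigenic cortex and to 117 to 134 in nontransgenic cortex. Of 3 blood markers listed (Hbb-b1, Hba-a1 and Alas2), 2 were measured, and both stayed at or next to the lowest value. In tissue of this kind, fewer cells of a type and less RNA in each cell cannot be told apart.

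The dNLS bigenic cortices changed 29 of the 85 genes relative to nontransgenic cortices, 20 upward and 9 downward, and left 56 uncalled (limma, adjusted p under 0.05 over all 12393 genes). Over all genes measured, 22.3% were called, 10.8% higher and 11.5% lower. The share of oxidative phosphorylation genes called was 34.1%. Among all 2468 genes with a mean level of 11 or more, 40.6% were called, 397 of them higher and 605 lower. Among the 71 oxidative phosphorylation genes that bright, 35.2% were called. The changes were small. The largest among the called genes was 0.69 on the log2 scale, a factor of 1.61, and the median over the 85 genes was 0.02, against 0 over all genes.

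The split between upward and downward calls moved with the scaling of the arrays. With the values as deposited it was 20 to 9. Centring each array on the median of its genes gave 17 to 8, centring on the bright genes of mean level 11 or more gave 32 to 9, and centring on the median of all probe sets gave 7 to 14, with the last lowering the median of all genes by 0.08. No gene was called in opposite directions by these 4 scalings. Of the genes, 6 were higher under all of them (Ndufa8, Ndufs8, Cyc1, Uqcr11, Cox8a and Atp5g1) and 7 were lower under all of them (Ndufa2, Ndufaf5, Ndufc1, Sdha, Cox6c, Atp5a1 and Atp5l). These genes come from all 5 complexes, and their direction held under the 4 scalings run.

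**Figure D1:**
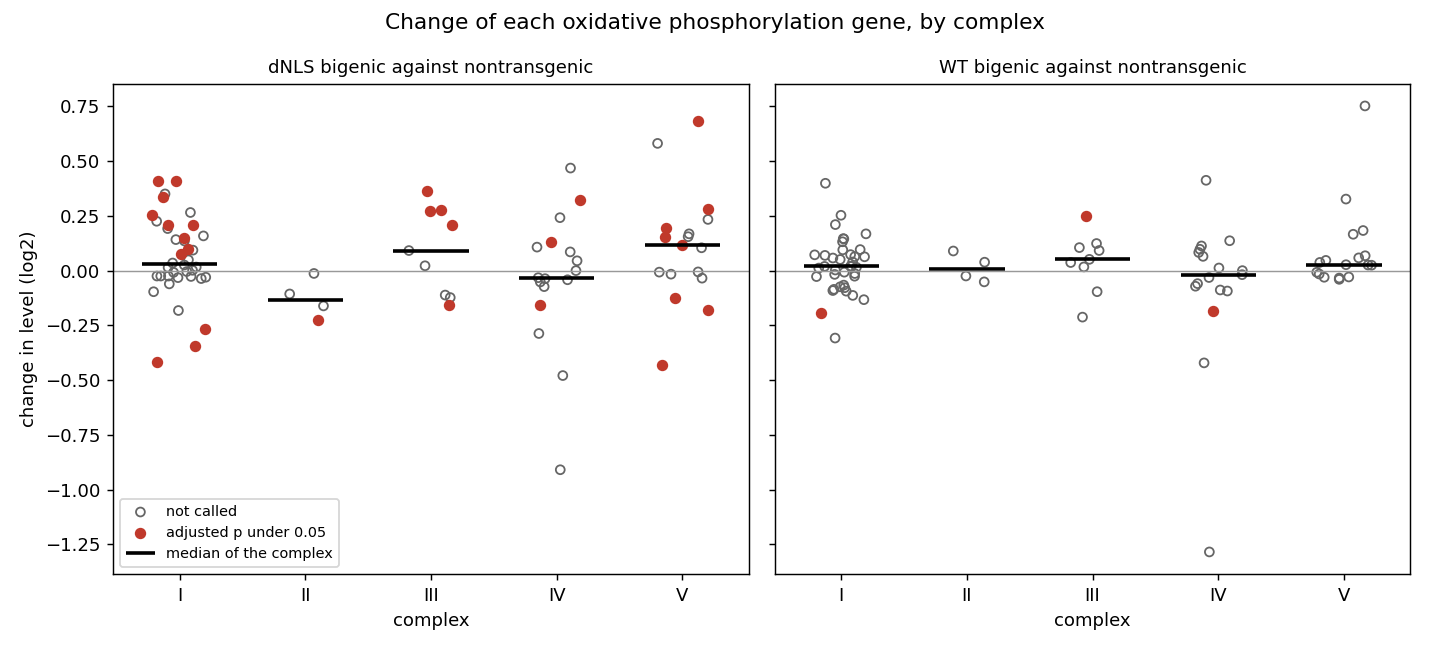
Log2 change of each of the 85 genes by complex, in dNLS bigenic cortex against nontransgenic cortex (left) and in WT bigenic cortex against nontransgenic cortex (right); filled points passed the adjusted p of 0.05 and bars are the medians of the complexes. On the left 29 genes were called, on both sides of 0 in every complex except II; on the right 3 were called.

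The 4 upstream sequences shown were picked by the size of the called change and by motif. Atp5g1 and Atp5l had the largest called rise and fall among genes with a promoter that could be shown. Ndufa8 and Sdha had the largest among such genes with a match to the NRF1 motif before the start. NRF1 is a factor known to regulate respiratory chain genes, and these 2 genes were chosen for the match. Each sequence is printed 5′ to 3′ on the strand of the gene, up to the edge of the annotated gene and at most 250 bases long. Capitals mark matches to GCGCNTGCGC (on the other strand GCGCANGCGC, for NRF1) or to CCGGAAG (on the other strand CTTCCGG, the core bound by ETS factors such as GABP). Sequences are from RefSeq, build GRCm38.p6, at chr11:96075695-96075881 for Atp5g1, chr2:36049339-36049588 for Ndufa8, chr9:44920743-44920992 for Atp5l and chr13:74350241-74350490 for Sdha, all 4 on the minus strand.
Atp5g1: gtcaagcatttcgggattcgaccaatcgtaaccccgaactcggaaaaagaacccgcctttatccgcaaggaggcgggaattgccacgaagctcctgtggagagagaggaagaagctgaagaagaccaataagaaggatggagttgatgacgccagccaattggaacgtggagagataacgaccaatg
Ndufa8: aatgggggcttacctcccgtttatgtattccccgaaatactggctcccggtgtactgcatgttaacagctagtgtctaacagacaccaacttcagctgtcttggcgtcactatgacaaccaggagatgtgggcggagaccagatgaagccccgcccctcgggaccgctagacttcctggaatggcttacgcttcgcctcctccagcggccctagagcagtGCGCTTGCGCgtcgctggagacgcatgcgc
Atp5l: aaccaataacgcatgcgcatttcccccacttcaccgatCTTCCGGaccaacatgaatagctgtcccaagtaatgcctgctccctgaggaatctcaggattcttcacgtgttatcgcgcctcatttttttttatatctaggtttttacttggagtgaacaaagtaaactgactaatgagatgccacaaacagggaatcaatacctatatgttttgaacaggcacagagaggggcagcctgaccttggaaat
Sdha: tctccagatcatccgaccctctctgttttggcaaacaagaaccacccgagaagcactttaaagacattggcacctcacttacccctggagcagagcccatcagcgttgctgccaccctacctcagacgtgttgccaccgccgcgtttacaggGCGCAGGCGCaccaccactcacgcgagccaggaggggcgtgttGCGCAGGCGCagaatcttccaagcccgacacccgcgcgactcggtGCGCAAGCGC
The stretch shown for Sdha held 3 NRF1 matches, that of Ndufa8 held 1, that of Atp5l held 1 ETS match, and that of Atp5g1 held 0 of either.

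Promoters from 250 bases before to 50 bases after the start were at hand for 70 of the 85 genes. The NRF1 motif occurred in 16 of the 70 (22.86%), against 9.36% of the 9887 genes of the array with a promoter and 5.19% of all 27025 genes in the table. The ETS motif occurred in 18 of the 70 (25.71%), against 16.34% and 9.93%. Both motifs occurred among genes of each direction. The NRF1 motif was found in 3 of 17 genes that rose in dNLS bigenic cortex, 3 of 6 that fell and 10 of 47 that were not called, and the ETS motif in 6 of 17, 1 of 6 and 11 of 47. Both strands were searched, matches of the 2 motifs can share an end letter, and a match describes the sequence only.

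In complex I, 9 of 38 genes rose and 3 fell in dNLS bigenic cortex, with a median change of 0.03. The counts of each complex are to be read beside the 10.8% of all genes called higher and 11.5% called lower. Ndufa8, an accessory subunit, stood at 12.50, 12.66, 12.54, 12.65 and 12.66 in the 5 dNLS bigenic mice, against a lowest value of 12.10, a median of 12.19 and a highest value of 12.44 in the 8 nontransgenic mice. Every dNLS bigenic array was above every array of the other 3 groups. The change was 0.41 ± 0.05 (SE; limma, adjusted p = 2.02e-05).

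Ndufs8, a core subunit that carries iron-sulphur clusters on the path to ubiquinone, was likewise above all other arrays. Its levels were 12.80, 12.81, 12.90, 12.79 and 13.05 in dNLS bigenic mice, against 12.29 at the lowest, 12.55 at the median and 12.65 at the highest in nontransgenic mice. The change was 0.34 ± 0.07 (SE; limma, adjusted p = 0.00112), and 5 of the 6 probe sets for Ndufs8 were called higher, with changes from 0.34 to 0.62. The sixth probe set lay at the lowest value on the arrays and could show nothing.

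Of the other 5 core subunits, Ndufv2, which holds an iron-sulphur cluster beside the flavin site, rose by 0.21 ± 0.06 (SE; limma, adjusted p = 0.0218), while its other 2 probe sets had -0.09 and -0.07 and were not called. Ndufv1, Ndufs1 and Ndufs3 had changes of -0.00, -0.03 and 0.03, with 95% intervals from -0.14 to 0.13, from -0.18 to 0.12 and from -0.09 to 0.16. Ndufs7 was not called by its probe set of highest mean, at 0.16, but was called by a dimmer one at 0.45.

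Assembly factors, which help to build complex I but do not stay in it, went both ways. Ndufaf1 had levels of 8.98, 8.94, 9.04, 9.18 and 8.80 in dNLS bigenic mice, against 8.31, 8.47 and 8.87 as lowest, median and highest in nontransgenic mice, so that 1 dNLS bigenic array lay inside the nontransgenic range. Its change was 0.41 ± 0.09 (SE; limma, adjusted p = 0.00331). Ndufaf4 rose by 0.21 ± 0.04 (SE; limma, adjusted p = 0.00124), with all 5 dNLS bigenic arrays above the other 16. Only 1 of the 2 probe sets for Ndufaf4 was called. Ndufaf5, which modifies the core subunit Ndufs7, fell by 0.27 ± 0.08 (SE; limma, adjusted p = 0.0257). That call was lost in 5 of the alternatives, the beta-actin difference as a covariate among them. Ndufaf3 and Ndufaf7 were not called.

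The largest falls in complex I were in small accessory subunits. Ndufc1, in the membrane arm, had 13.09, 13.15, 13.08, 13.13 and 13.09 in dNLS bigenic mice, against 13.22 at the lowest, 13.46 at the median and 13.52 at the highest in nontransgenic mice, and no array of another group reached down to the dNLS bigenic values. The change was -0.34 ± 0.04 (SE; limma, adjusted p = 7.23e-06), and its second probe set gave -0.58. Ndufa2, in the matrix arm, had 12.09, 12.22, 12.11, 12.16 and 12.36 in dNLS bigenic mice, against 12.35, 12.56 and 12.90 as lowest, median and highest in nontransgenic mice, with 1 dNLS bigenic array just inside the nontransgenic range. Its change was -0.42 ± 0.08 (SE; limma, adjusted p = 0.000964).

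The remaining called accessory subunits of complex I rose. Ndufb2, in the membrane arm, rose by 0.25 ± 0.05, and Ndufa13, also known as GRIM-19, by 0.15 ± 0.03 (SE; limma, adjusted p = 0.00169 and 0.000482). Ndufab1, the mitochondrial acyl carrier protein, rose by 0.08 ± 0.03 (SE). Ndufb1 was called at 0.10, but lay near the lowest value of the arrays, at 2.53 ± 0.11 in dNLS bigenic mice and 2.43 ± 0.02 in nontransgenic mice (SD, n = 5 and 8), and says little about the transcript. Of the 27 accessory subunits, 20 were not called.

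In complex II, Sdha was called lower and the other 3 genes were not called. Sdha, the flavoprotein that oxidises succinate, had 12.66, 12.63, 12.60, 12.58 and 12.48 in dNLS bigenic mice, against 12.74, 12.79 and 12.90 as lowest, median and highest in nontransgenic mice. All 5 values were below all 16 others. The change was -0.22 ± 0.03 (SE; limma, adjusted p = 6.46e-05). The second probe set for Sdha, at a mean of 12.26, had -0.04 and was not called, so the fall rests on 1 of 2 probe sets. Sdhb, the iron-sulphur subunit, and Sdhc and Sdhd, the membrane anchors, had changes of -0.11, -0.16 and -0.01, with 95% intervals that ran from -0.21 to just under 0, from -0.35 to 0.03 and from -0.10 to 0.07.

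In complex III, 4 of 9 genes rose and 1 fell, with a median change of 0.09. Uqcr11, a small accessory subunit, had 12.11, 12.13, 12.17, 12.17 and 12.33 in dNLS bigenic mice, against 11.72 at the lowest, 11.84 at the median and 11.90 at the highest in nontransgenic mice. All 5 were above all 16 others, and the change of 0.36 ± 0.04 had the smallest adjusted p of the 85 genes (SE; limma, adjusted p = 4.03e-06). Cyc1, cytochrome c1, which passes electrons to cytochrome c, had 12.44, 12.28, 12.31, 12.25 and 12.34 in dNLS bigenic mice, against 11.76, 12.07 and 12.12 in nontransgenic mice. Here too the dNLS bigenic arrays were above all others, and the change was 0.28 ± 0.05 (SE; limma, adjusted p = 0.000814).

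Uqcrq, which binds near the ubiquinone site, rose by 0.27 ± 0.05, and Uqcrc1, a core protein on the matrix side, by 0.21 ± 0.04 (SE; limma, adjusted p = 0.00113 and 0.00193). The rise of Uqcrq rests on 1 of its 4 probe sets. Uqcr10, a small membrane subunit, fell by 0.16 ± 0.04 (SE; limma, adjusted p = 0.00439), with all 5 arrays below all others and all 3 of its probe sets called lower. Uqcrfs1, the Rieske iron-sulphur protein, had a change of -0.12 (95% interval from -0.24 to -0.01) and was not called after adjustment. Uqcrb, with the highest mean level in complex III, was not called. It stood at 13.34 ± 0.16 in dNLS bigenic and 13.425 ± 0.074 in nontransgenic mice (SD).

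In complex IV, 2 of 17 genes rose and 1 fell, with a median change of -0.03. The 17 include Cox4i2, Cox6a2, Cox6b2, Cox7a1, Cox7c, Cox8b and Cox8c, which were dim and whose changes are hard to read. The count and median are therefore not set against those of the other complexes. Cox8a, the broadly expressed form of the smallest nuclear subunit, had 12.50, 12.57, 12.58, 12.48 and 12.71 in dNLS bigenic mice, against 12.10, 12.27 and 12.40 as lowest, median and highest in nontransgenic mice, and all 5 exceeded the other 16 arrays. The change was 0.32 ± 0.05 (SE; limma, adjusted p = 7.25e-05), and a second probe set gave 0.35. Cox6b1, which helps to hold the dimer together on the outer side of the membrane, rose by 0.13 ± 0.03, and Cox6c, a small membrane subunit, fell by 0.16 ± 0.03 (SE; limma, adjusted p = 0.00675 and 0.000311).

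The other widely expressed subunits of complex IV were not called by their brightest probe sets. Cox5a and Cox5b had changes of -0.04 and 0.04, with 95% intervals from -0.14 to 0.07 and from -0.06 to 0.15. Dimmer probe sets for these genes were called, 2 for Cox5a at -0.27 and -0.12 and 2 for Cox5b at 0.15 and 0.23. Cox4i1, a regulatory subunit, had 0.11, with an interval from -0.08 to 0.30. Cox7a2, with the highest mean level in complex IV, stood at 14.15 ± 0.03 in dNLS bigenic and 14.06 ± 0.12 in nontransgenic mice (SD). Ndufa4, once counted in complex I and now placed in complex IV, had -0.03, with an interval from -0.07 to 0.01. Cox7a2l, which helps to join complexes III and IV, had 0.47, with an interval from 0.05 to 0.89, and was not called after adjustment (limma, adjusted p = 0.109).

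Complex IV also has paralogs made mainly in heart, skeletal muscle, lung or testis, and their probe sets were dim in cortex. Cox8c was at the lowest value on 21 arrays and Cox8b on 20, and the mean levels were 2.08 for Cox4i2, 3.38 for Cox7a1, 4.01 for Cox6b2 and 5.57 for Cox6a2. None of these was called in any comparison. Cox7c, a subunit found in all tissues, was read by a probe set with a mean of only 6.96 that spread from 5.97 to 7.29 in dNLS bigenic mice and from 6.68 to 9.61 in nontransgenic mice, and its change was -0.91 (95% interval from -2.04 to 0.22), which was not called.

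In complex V, 5 of 17 genes rose and 3 fell, with a median change of 0.12. The ring of c subunits, which turns as protons pass, is encoded by the 3 genes Atp5g1, Atp5g2 and Atp5g3, whose mature proteins are the same and whose targeting peptides differ. Atp5g1 had 13.09, 13.04, 13.09, 13.07 and 13.11 in dNLS bigenic mice, against 12.03 at the lowest, 12.47 at the median and 12.72 at the highest in nontransgenic mice. The dNLS bigenic arrays lay close together and above every other array. The change was 0.69 ± 0.09 (SE; limma, adjusted p = 3.36e-05).

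Atp5g3 had 13.86, 13.86, 13.81, 13.88 and 13.68 in dNLS bigenic mice, against 13.86, 13.94 and 14.003 as lowest, median and highest in nontransgenic mice, and the groups overlapped. Its change was -0.13 ± 0.04 (SE; limma, adjusted p = 0.016), and without dNLS bigenic 5 it was no longer called (limma, adjusted p = 0.117). Atp5g2 had 11.34, 11.28, 11.39, 11.71 and 11.23 in dNLS bigenic mice and spread from 9.77 to 11.60 in nontransgenic mice; its change of 0.58 (95% interval from 0.04 to 1.13) was not called (limma, adjusted p = 0.129). The lowest Atp5g2 values were in nontransgenic 6 and nontransgenic 4, the arrays with the highest beta-actin differences, and the same 2 arrays held the lowest Atp5g1 values. Without both arrays Atp5g1 was still called, at 0.58 (limma, adjusted p = 7.42e-07).

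**Figure D2:**
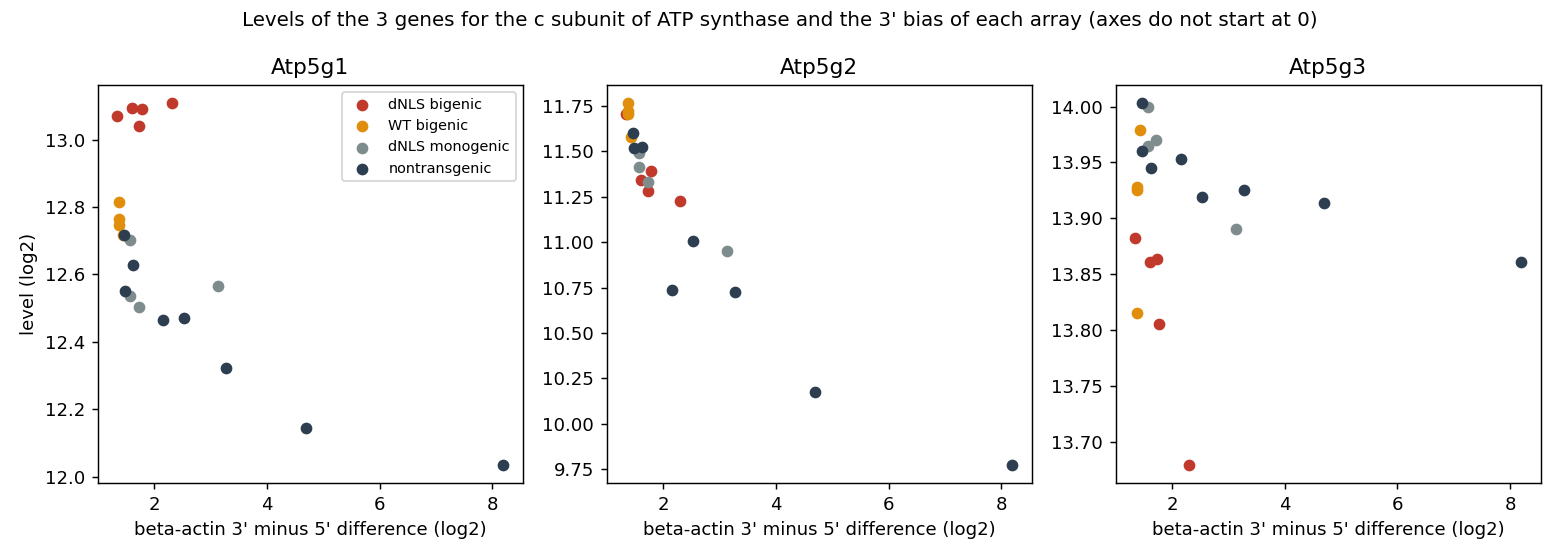
Level of each c subunit gene (y axis, log2) on each of the 21 arrays against the beta-actin 3′ minus 5′ difference of the array (x axis, log2). For Atp5g1 the 5 dNLS bigenic arrays sit between 13.04 and 13.11, above all others; for Atp5g1 and Atp5g2 the lowest points are the nontransgenic arrays at 4.70 and 8.20 on the x axis.

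In the catalytic F1 head of complex V, 1 gene rose and 1 fell. Atp5a1, the alpha subunit, had 13.73, 13.70, 13.66, 13.64 and 13.69 in dNLS bigenic mice, against 13.75, 13.86 and 13.90 as lowest, median and highest in nontransgenic mice, and the 5 were below all 16 others. Its change was -0.18 ± 0.03 (SE; limma, adjusted p = 0.000127). A second probe set for Atp5a1 was called at -0.20, and the dimmest of the 3 had 0.29 and was not called. Atp5d, the delta subunit of the central stalk, rose by 0.28 ± 0.05 (SE; limma, adjusted p = 0.000235), with all 5 arrays above all others and a second probe set at 0.49. Atp5b, the beta subunit, had 0.17 (95% interval from -0.11 to 0.45), Atp5c1, the gamma subunit, 0.15 (from 0.03 to 0.28) and Atp5e, the epsilon subunit, -0.01 (from -0.16 to 0.15), and none of these was called.

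Among the small membrane subunits, Atp5l, subunit g, fell the most. It had 11.22, 11.32, 11.28, 11.27 and 11.39 in dNLS bigenic mice, against 11.58, 11.74 and 11.85 as lowest, median and highest in nontransgenic mice, and every dNLS bigenic array was below every other array. The change was -0.43 ± 0.05 (SE; limma, adjusted p = 6.17e-06). Atp5j2, subunit f, rose by 0.19 ± 0.03 with all 5 arrays above all others, and Atp5mpl, a small proteolipid, rose by 0.12 ± 0.04 (SE; limma, adjusted p = 5.49e-05 and 0.0274). In the peripheral stalk, Atp5j, coupling factor 6, rose by 0.15 ± 0.03 (SE; limma, adjusted p = 0.00294), while Atp5h, Atp5o and Atp5pb were not called.

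**Figure D3:**
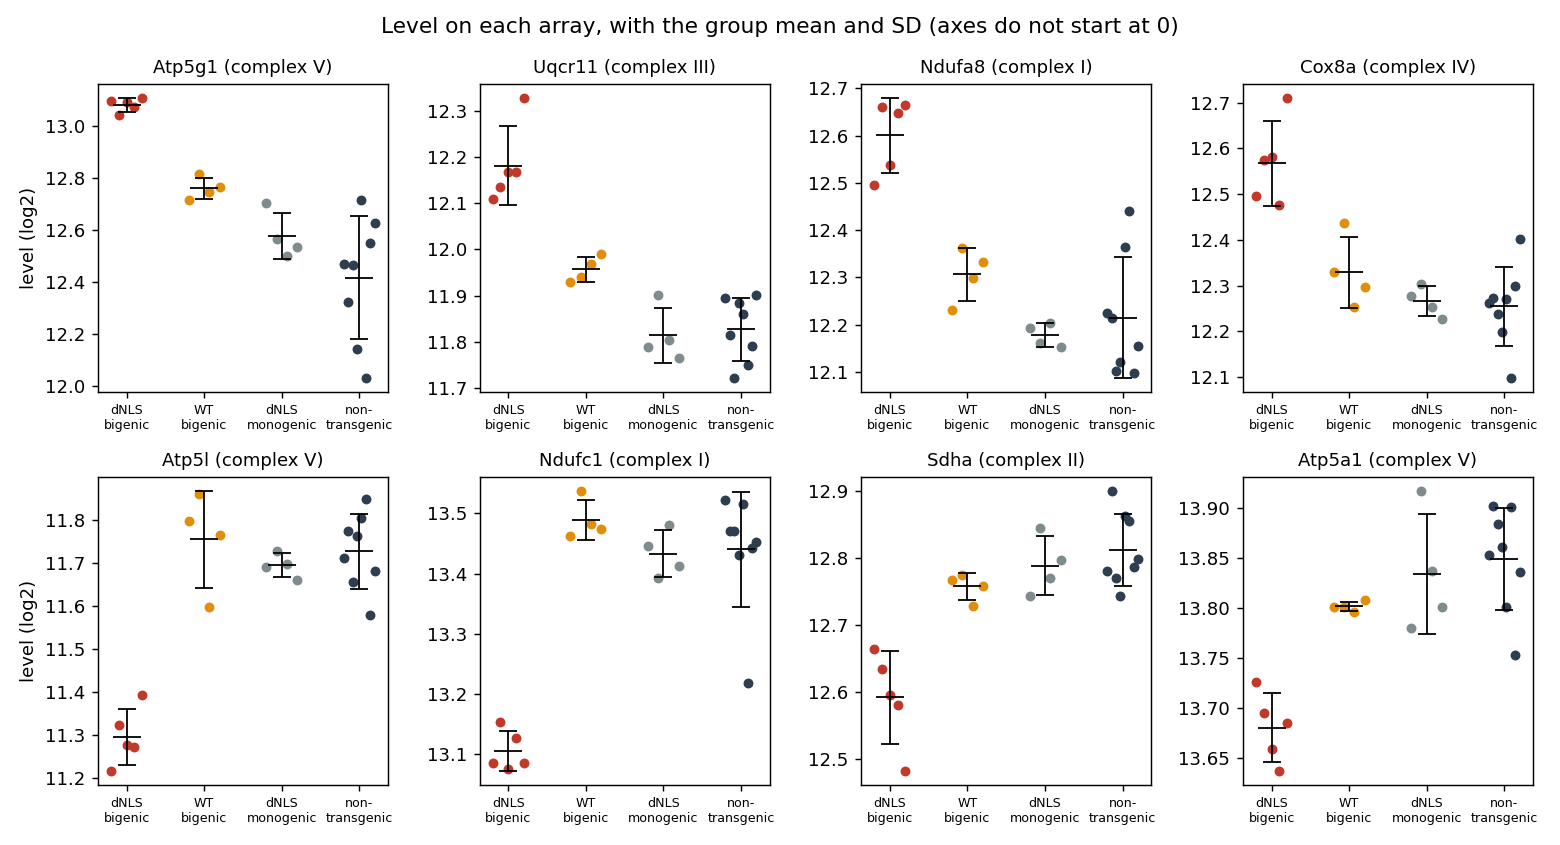
Levels (log2) of 8 genes on each array, with the mean and SD of each group: dNLS bigenic (n = 5), WT bigenic (n = 4), dNLS monogenic (n = 4) and nontransgenic (n = 8). The dNLS bigenic arrays lie above all others for Atp5g1, Uqcr11, Ndufa8 and Cox8a and below all others for Atp5l, Ndufc1, Sdha and Atp5a1.

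Over the 21 arrays, all 5 dNLS bigenic arrays were above all 16 others for 12 of the 85 genes (Atp5d, Atp5g1, Atp5j2, Cox8a, Cyc1, Ndufa13, Ndufa8, Ndufaf4, Ndufb1, Ndufs8, Uqcr11 and Uqcrc1), against 4.91% of all genes. They were below all 16 others for 5 (Atp5a1, Atp5l, Ndufc1, Sdha and Uqcr10), against 3.05% of all genes. Against nontransgenic arrays alone, the groups did not overlap for 20 of the 85, and for 12.5% of all genes. These shares of all genes include the 2854 genes at the lowest value on all arrays, which cannot separate. No such share was taken over bright genes, so an excess over genes of like level was not tested. The same holds for the overlap shares of the other comparisons. Ndufb1, among the 12, lay near the lowest value.

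**Figure D4:**
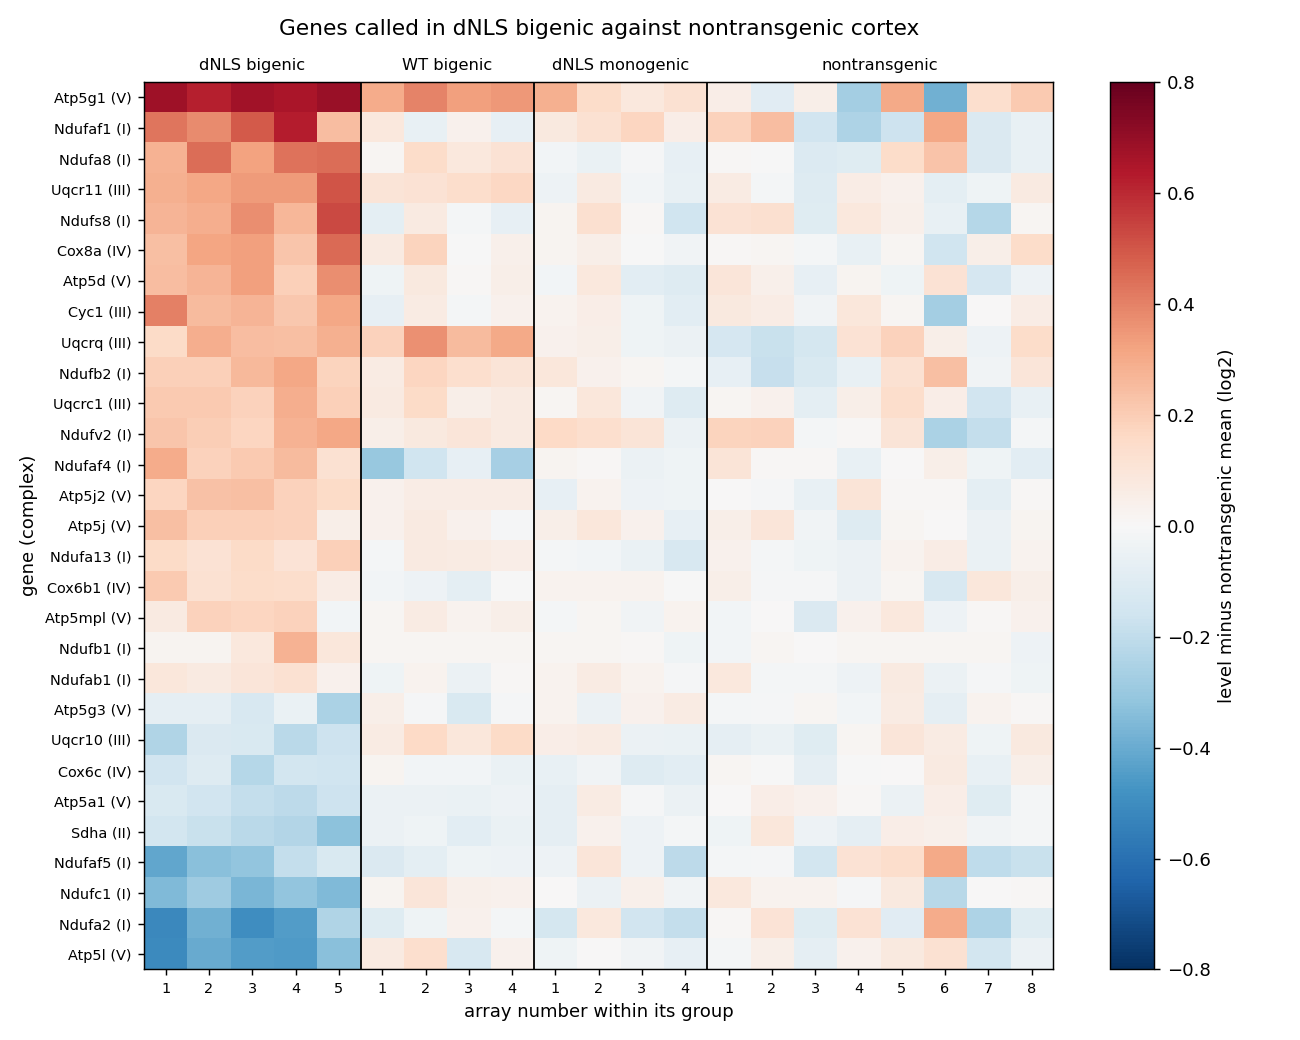
Each of the 29 genes called in dNLS bigenic against nontransgenic cortex (rows, with the complex in brackets) on each array (columns, numbered within their group), as the level minus the nontransgenic mean (log2, colour). The dNLS bigenic columns are red in the 20 upper rows and blue in the 9 lower rows nearly throughout, and Atp5g1 and Uqcrq are also red in the WT bigenic columns.

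More than 1 probe set was present for 45 of the 85 genes. In no gene were probe sets called in opposite directions. The probe set of highest mean and at least 1 other were both called for 11 genes, the one of highest mean alone for 4, another one alone for 9, and none for 21. The 9 were Atp5h, Atp5o, Cox5b, Ndufa12, Ndufb6, Ndufs7 and Uqcrc2, with the dimmer probe sets higher, and Cox5a and Ndufs4, with them lower.

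WT bigenic cortices, which express TDP-43 with its nuclear localisation signal, were compared with the same nontransgenic cortices. Of the 85 genes, 3 were called, against 2.23% of all genes. Of these 1 was higher, against 0.686%, and 2 were lower, against 1.54%. Uqcrq rose by 0.25 ± 0.06, while Ndufaf4 had a change of -0.19 ± 0.04 and Cox6a1, the broadly expressed form of subunit VIa, one of -0.18 ± 0.05 (SE; limma, adjusted p = 0.0316, 0.0315 and 0.0445). Uqcrq had 11.58, 11.76, 11.65 and 11.69 in WT bigenic mice, against 11.22, 11.40 and 11.58 as lowest, median and highest in nontransgenic mice, and the groups touched without overlapping. The groups did not overlap for 5 of the 85 genes and for 5.25% of all genes. Ndufaf4 had 10.53, 10.67, 10.76 and 10.56 in WT bigenic mice, against 10.74, 10.84 and 10.93 in nontransgenic mice, with 1 WT bigenic array inside the nontransgenic range. None of the 3 calls held throughout: 0 genes were called when arrays were centred on their medians or when only nontransgenic mice of the same line served as controls, and leaving out 1 array at a time gave 0 to 6. The split of calls also moved, to 9 higher and 4 lower when arrays were centred on the bright genes and 0 higher and 3 lower when centred on all probe sets, which shifts the median of all genes by -0.11. At an unadjusted p under 0.05 there were 17 of the 85 and 2292 of all 12393 genes. The medians of complexes I to V were 0.02, 0.01, 0.05, -0.02 and 0.03. Atp5g1 had 12.72, 12.81, 12.75 and 12.76 in WT bigenic mice, against 12.03, 12.47 and 12.72 in nontransgenic mice, a change of 0.33 ± 0.10 that was not called (SE; limma, adjusted p = 0.083).

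The direct comparison of dNLS bigenic with WT bigenic cortices called 20 of the 85 genes, 13 higher and 7 lower, against 10.8% of all genes, 6.24% higher and 4.53% lower. Among genes of mean level 11 or more, 18.5% were called. Groups did not overlap for 32 of the 85 genes, against 22.4% of all genes. Centring on all probe sets gave 9 higher and 2 lower. Ndufaf4 had the largest rise, 0.40 ± 0.05 (SE; limma, adjusted p = 5.66e-05), with values of 11.12, 11.01, 11.04, 11.08 and 10.95 in dNLS bigenic mice and 10.53, 10.67, 10.76 and 10.56 in WT bigenic mice. It was the only one of the 85 called higher in dNLS bigenic and lower in WT bigenic cortex against nontransgenic cortex. Ndufa8 was higher by 0.33 ± 0.06, Ndufs8 by 0.35 ± 0.08 and Uqcr11 by 0.24 ± 0.05 (SE; limma, adjusted p = 0.00215, 0.00888 and 0.00341). The largest falls were in Atp5l, -0.46 ± 0.06, and Ndufc1, -0.40 ± 0.05 (SE; limma, adjusted p = 8e-05 and 3.91e-05). Atp5g1 differed by 0.36 ± 0.11, just past the threshold (SE; limma, adjusted p = 0.0491), and lost its call in 13 of the alternatives; Uqcrq differed by 0.02 and was not called. Of the genes, 5 were higher (Ndufa8, Ndufaf4, Ndufs8, Uqcr11 and Atp5d) and 2 lower (Ndufc1 and Atp5l) under all 4 scalings. Without WT bigenic 1, the sole male of its group, the count was 11.

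Against dNLS monogenic cortices, which carry the same transgene without tTA and come from the same line, 23 of the 85 genes were called in dNLS bigenic cortices, 16 higher and 7 lower, against 14.3% of all genes, 7.76% higher and 6.54% lower. Among genes of mean level 11 or more, 25.7% were called. Groups did not overlap for 30 of the 85 genes, against 19.8% of all genes. Centring on the array medians gave 10 higher and 7 lower, centring on all probe sets 7 higher and 5 lower, and centring on the bright genes 22 higher and 7 lower. Under all 4 scalings, 7 genes were higher (Ndufa8, Ndufs8, Cyc1, Uqcr11, Cox8a, Atp5d and Atp5g1) and 3 lower (Ndufc1, Sdha and Atp5l). Atp5g1 was higher by 0.51 ± 0.10, Ndufa8 by 0.43 ± 0.06 and Uqcr11 by 0.37 ± 0.04 (SE; limma, adjusted p = 0.00258, 8.75e-05 and 2.44e-05). Atp5l was lower with -0.40 ± 0.06, Ndufc1 with -0.33 ± 0.05 and Sdha with -0.20 ± 0.04 (SE; limma, adjusted p = 9.05e-05, 8.12e-05 and 0.00109). The 3 comparisons of dNLS bigenic mice share those 5 arrays. In all 3, 12 genes were called higher (Ndufa13, Ndufa8, Ndufaf1, Ndufaf4, Ndufs8, Cyc1, Uqcr11, Cox6b1, Cox8a, Atp5d, Atp5g1 and Atp5j2) and 6 lower (Ndufa2, Ndufc1, Sdha, Uqcr10, Atp5a1 and Atp5l) on the deposited scale. Of these, the genes called in all 3 comparisons under all 4 scalings were Ndufa8, Ndufs8 and Uqcr11, which were higher, and Ndufc1 and Atp5l, which were lower. Ndufaf1 lost its call against dNLS monogenic cortex in 14 of the alternatives.

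Between dNLS monogenic and nontransgenic cortices, limma called 0 of the 85 genes and 0% of all genes. At an unadjusted p under 0.05 there were 3 of the 85 and 196 of all genes. The dNLS monogenic arrays overlapped the nontransgenic arrays for all 85 genes, where 0.0646% of all genes did not overlap, and the median change was -0.00.

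The effects of the 2 forms of TDP-43 were also set against each other with controls of their own line, 6 nontransgenic mice for NLS4 and 2 for WT12. The difference passed the threshold for 10 of the 85 genes and 440 of the 12393. It was -0.63 ± 0.12 for Ndufa2, -0.59 ± 0.08 for Atp5l, -0.47 ± 0.12 for Ndufaf5, -0.37 ± 0.07 for Ndufc1, -0.26 ± 0.07 for Uqcr10 and -0.19 ± 0.05 for Atp5a1 (SE). It was 0.37 ± 0.08 for Cox8a, 0.33 ± 0.07 for Ndufaf4, 0.27 ± 0.05 for Cox6b1 and 0.25 ± 0.06 for Cox6a1 (SE). The limma adjusted p for these 10 ran from 0.000561 to 0.0394. Atp5g1, with 0.55 ± 0.16 (SE), did not pass (limma, adjusted p = 0.0635). The WT12 controls were 2 females, so this contrast leans on few arrays.

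Genes that serve the complexes without being part of them, from lists drawn up with results of these data known, were compared in dNLS bigenic against nontransgenic cortex on the deposited scale. Over all genes in that comparison, 10.8% were called higher and 11.5% lower. Among all genes of mean level 11 or more, 40.6% were called. The counts for the lists and for the cell type markers are to be read beside these shares. The listed genes were not run through the alternatives. Of 32 assembly factors, 9 rose and 5 fell, with a median of -0.05. Sdhaf2, which attaches flavin to Sdha, rose by 0.66 ± 0.05, and Sdhaf4, which also serves Sdha, had a change of -0.72 ± 0.14 (SE; limma, adjusted p = 8.8e-08 and 0.00125). Cox17, a copper chaperone for complex IV, had a change of -0.84 ± 0.07 (SE; limma, adjusted p = 1.9e-07). Uqcc3, for complex III, rose by 0.73 ± 0.09, Oxa1l, the inner membrane insertase, by 0.73 ± 0.14, and Lrpprc, which stabilises mitochondrial messenger RNA, by 0.53 ± 0.08 (SE; limma, adjusted p = 1.72e-05, 0.000929 and 0.000158).

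Of 15 ubiquinone enzymes and electron carriers, 3 rose and 0 fell. The 3 were the ubiquinone enzymes Coq4 (0.58 ± 0.09), Coq5 (0.35 ± 0.12) and Coq9 (0.51 ± 0.08) (SE; limma, adjusted p = 0.000119, 0.0463 and 8.18e-05). Of 14 regulators of mitochondrial gene expression, 5 rose and 3 fell. Tfb2m, a mitochondrial transcription factor, rose by 1.41 ± 0.21, and the coactivators Ppargc1b by 0.94 ± 0.16 and Pprc1 by 0.96 ± 0.21 (SE; limma, adjusted p = 0.000105, 0.000277 and 0.00227). Tfb2m stood at 10.10 ± 0.15 in dNLS bigenic, 9.39 ± 0.04 in WT bigenic, 8.98 ± 0.21 in dNLS monogenic and 8.73 ± 0.54 in nontransgenic mice (SD). It was also called higher against dNLS monogenic cortex but not against WT bigenic cortex. Tfam, which packages mitochondrial DNA, had -0.55 ± 0.19, Gabpa, the DNA-binding subunit of GABP, -0.39 ± 0.09, and Ssbp1, which binds single-stranded mitochondrial DNA, -0.60 ± 0.11 (SE; limma, adjusted p = 0.0464, 0.00568 and 0.000737). In WT bigenic against nontransgenic cortex Gabpa was also called lower, at -0.43 ± 0.10 (SE; limma, adjusted p = 0.0335). Tfam had -0.42 ± 0.20 there and was not called (SE; limma, adjusted p = 0.275). Between dNLS bigenic and WT bigenic cortex 3 of the 14 were called higher and 0 lower, against 6.24% and 4.53% of all genes in that comparison. The 3 were Ppargc1b, Polrmt and Esrra. Esrra was dim, at 3.91 in dNLS bigenic and 3.37 in WT bigenic mice. Ppargc1a, the better known coactivator, had -0.12 ± 0.11 and was not called (SE; limma, adjusted p = 0.58).

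In the pathways that feed the respiratory chain, 3 of 15 citrate cycle and pyruvate dehydrogenase genes rose and 5 fell. Idh3a and Ogdh, for the oxidative steps, rose by 0.98 ± 0.19 and 0.53 ± 0.09, while Dlat and Pdhb, for pyruvate dehydrogenase, had -0.45 ± 0.08 and -0.22 ± 0.05 (SE; limma, adjusted p = 0.00101, 0.000214, 0.000576 and 0.00385). Idh3a stood at 12.51 ± 0.07 in dNLS bigenic, 11.92 ± 0.06 in WT bigenic, 11.85 ± 0.17 in dNLS monogenic and 11.535 ± 0.484 in nontransgenic mice (SD). It was not called against WT bigenic or dNLS monogenic cortex, while Ogdh was called higher against both. Of 13 glycolysis genes 1 rose and 5 fell, with Pgk1 at -0.22 ± 0.02 (SE; limma, adjusted p = 3.41e-07). Of 14 carriers and channels of the mitochondrial membranes 4 rose and 2 fell. Of 15 genes for the vacuolar ATPase, the proton pump that acidifies lysosomes and synaptic vesicles, 2 rose and 7 fell, with Atp6v1c1 at -0.51 ± 0.05 (SE; limma, adjusted p = 1.16e-06).

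Marker genes of cell types were read beside these results. Among neuronal markers 2 of 11 rose (Rbfox3 and Thy1) and 2 fell (Nefl and Gad1), and of 5 markers of parvalbumin interneurons, cells of high oxidative demand, 0 were called. Rbfox3 had an SD of 0.55 in nontransgenic mice and was not called against WT bigenic or dNLS monogenic cortex, while Thy1 was called higher against both. Of 7 astrocyte markers Aldh1l1 fell, with summed levels of 79.1 to 81.3 in dNLS bigenic mice and 80.8 to 82.0 in nontransgenic mice. Of 7 microglial markers Tmem119 fell, with sums of 59.8 to 65.5 in dNLS bigenic mice and 60.6 to 69.0 in nontransgenic mice. Of 6 oligodendrocyte markers Mbp fell, with sums of 71.0 to 72.7 in dNLS bigenic mice and 69.4 to 74.4 in nontransgenic mice. Of 5 striatal markers Penk fell, with sums of 34.9 to 51.6 in dNLS bigenic mice and 41.0 to 55.3 in nontransgenic mice. Of 5 endothelial and 3 choroid plexus markers 0 were called. The part of cell makeup in the oxidative phosphorylation results was not tested.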

How the data were processed

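Total RNA from frozen cerebral cortex of 21 mice, with RIN of 7 or more per the labels, was hybridised to Affymetrix MOE430A 2.0 arrays, and the authors deposited 1 log2 level for each of 22690 probe sets and array. Partek is named in the submitters' processing notes; how background, summary and normalisation were done is not given in the sources used here. Of the probe sets, 64 controls, 1555 without a symbol and 691 with several symbols were left out, and each of the 12393 genes of the remaining 20380 was read by its probe set of highest mean; 2854 genes lay at the lowest value on all arrays.

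Groups were compared with limma 3.58.1 in R 4.3.3 (linear model with 4 groups and sex over all 21 arrays, moderated with a variance trend), with Benjamini-Hochberg adjustment over all 12393 genes and a threshold of 0.05. Each array was 1 mouse, so each p-value sets a difference against the spread between mice. That spread was 1 estimate per gene shared by the 4 groups and moderated across genes. The groups could differ in it, as for Atp5g1, with an SD of 0.03 in dNLS bigenic and 0.24 in nontransgenic mice. The model was tested on simulated data in which each gene had the same spread in every group. Those data held no differences in RNA quality or array scaling, so that test does not cover them. Alternatives were other centrings, sex terms, filters, probe sets, controls of the same line, the beta-actin difference as a covariate, and leaving arrays out. The genes named were, in each comparison, up to 10 of the largest called changes in each direction, in each complex the highest and lowest mean level and largest called changes, and the paralog families; other genes were named after their values were seen. The genes, lists and tests were chosen with earlier results of these data known. The number of arrays limits the precision.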

Additional observations from a re-analysis of the deposited data

Results flagged for a closer look

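A single array stood apart from the rest of its group in 14 of 160 groups tested. The cut-offs flag about 1 in 20 groups of normally spread values. That rate does not hold for genes at or near the lowest value, such as Cox4i2, Cox8b and Cox8c. The groups also share arrays, so the 14 are not set against it. Array nontransgenic 6, which had the highest beta-actin 3′ minus 5′ difference, gave 8 of the 14. Its mean level over complex IV was 9.64, above the other nontransgenic arrays, and so were its levels of the dim genes Cox4i2 (2.49), Cox6b2 (5.29), Cox7a1 (4.77) and Cox8b (2.62). Its levels of Cox4i1 (12.67), Cyc1 (11.76) and Ndufc1 (13.22) were below the others. The part of RNA quality in these values was not tested.

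In the other groups, Uqcr11 in dNLS bigenic 5 was high at 12.33, Atp5j2 in WT bigenic 1 low at 13.43, Cox6b2 in WT bigenic 3 high at 5.24, and Cox6b1 in dNLS monogenic 4 low at 13.74. Cox4i2 in dNLS bigenic 1 and in dNLS monogenic 2, both at 2.06, differed from its neighbours only in the last digits, next to the lowest value.

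The effect of dNLS TDP-43 minus the effect of WT TDP-43, each against controls of its own line, passed the threshold in limma for 10 genes. It was -0.63 for Ndufa2, -0.59 for Atp5l, -0.47 for Ndufaf5, -0.37 for Ndufc1, -0.26 for Uqcr10 and -0.19 for Atp5a1, and 0.37 for Cox8a, 0.33 for Ndufaf4, 0.27 for Cox6b1 and 0.25 for Cox6a1.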

How the results depend on the processing

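No paired analysis was possible because the labels give the groups no shared replicate numbers. Called genes were followed through every setting for 19 genes in dNLS bigenic against nontransgenic and 3 in WT bigenic against nontransgenic. For dNLS bigenic against WT bigenic and against dNLS monogenic it was 17 each. Of these, 0 turned their direction. Other genes that the text names were not followed in this way. The split of calls and several complex medians near 0 did turn, as given here and beside the results. Centrings on all probe sets and on bright genes were added after seeing the data. In dNLS bigenic against nontransgenic cortex, 29 genes were called; leaving out 1 array at a time gave 25 to 35, and counting every probe set gave 56. In WT bigenic against nontransgenic cortex, 3 were called; the range without 1 array was 0 to 6, with 0 without nontransgenic 7, WT bigenic 1, WT bigenic 2 or WT bigenic 4 and 6 without nontransgenic 5. That count was 0 with arrays centred on their medians or with controls of the same line, 1 with the beta-actin difference as covariate, 5 with no sex term, with sex read from Xist or without nontransgenic 4 and 6, 6 over every probe set and 13 with centring on bright genes. In dNLS bigenic against WT bigenic cortex, 20 were called; the range without 1 array was 11 to 19, with 11 without WT bigenic 1, and both the median and the all-probe-set centring gave 11. Against dNLS monogenic cortex, 23 were called; the range was 17 to 26, every probe set gave 36 and all-probe-set centring 12. In dNLS monogenic against nontransgenic cortex the count was 0 in all settings run.

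Over all probe sets of a gene, the median change was -0.014 for complex II in dNLS bigenic against nontransgenic, 0.12 for complex II in WT bigenic against nontransgenic, 0 for complex III in dNLS bigenic against dNLS monogenic and 0.087 for complex II in dNLS monogenic against nontransgenic. With arrays centred, it was 0.045 for complex V in dNLS bigenic against dNLS monogenic, and 0.043 and 0.069 for complexes II and III in dNLS monogenic against nontransgenic. Without nontransgenic 4 and 6 it was -0.010 for complex III in WT bigenic against nontransgenic. The cause of these shifts was not tested. Of the named calls, 12 of 19 in dNLS bigenic against nontransgenic, 0 of 3 in WT bigenic against nontransgenic, 5 of 17 against WT bigenic and 10 of 17 against dNLS monogenic held in every setting. Genes near the lowest signal of the arrays have no readable change.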
